A study of Mus musculus with 8 samples.

Results

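The node of Ranvier and the paranode beside it are assembled by a small group of adhesion and scaffold proteins, and the expression of 9 genes that encode them was examined in the striatum of mice with a heterozygous 16p11.2 deletion. The genes were taken by their symbols, as proteins of the node and paranode, with earlier results of these data known: Cntnap1, Cntn1, Nfasc, Nrcam, Ank3, Sptbn4, Epb41l3, Sptan1 and Sptbn1. All 9 were found among the 55032 genes of the count table, and all 9 were among the 18294 genes with enough counts to be tested. For none of the 9 genes did a difference between the genotypes pass the test, and for each of them the range among WT mice was wider than the gap between the group means.

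Total RNA was sequenced from the striatum of 4 WT mice and 4 16p11.2+/- mice, all female, of the C57BL/6 strain and at postnatal day 60. The 16p11.2+/- mice come from an inherited line that lacks 1 copy of the segment of chromosome 7 that corresponds to human 16p11.2, and so every cell type of the tissue carries the deletion. Each mouse gave 1 library, and mice are named here as in the labels, in which DF marks the 16p11.2+/- mice. Between 15125051 and 16387993 reads were counted on genes in WT mice and between 15240680 and 16523429 in 16p11.2+/- mice. At this depth each of the 9 genes had between 2959 and 21422 counts in every mouse.

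On a myelinated axon the sodium channels are gathered at short gaps in the myelin, the nodes of Ranvier, where the action potential is renewed. At the node, ankyrin G (Ank3) and beta IV spectrin (Sptbn4) anchor the channels and the adhesion proteins neurofascin (Nfasc) and NrCAM (Nrcam). On both sides of the node the terminal loops of the oligodendrocyte are sealed to the axon at the paranode. There the axonal pair Caspr (Cntnap1) and contactin (Cntn1) meets the glial form of neurofascin, and a submembrane skeleton of the scaffold encoded by Epb41l3, alpha II spectrin (Sptan1) and beta II spectrin (Sptbn1) holds the complex in place. Neurofascin is made by both sides of the junction, and several of the other genes also serve the axon initial segment, unmyelinated membrane or glia.

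The genotype labels were examined first on genes of the deleted segment. Mapk3, a kinase of the segment, had an FPKM (counts scaled to gene length and to the total of the library) of 35.7, 42.3, 46.4 and 37.6 in WT mice and of 21.5, 22.3, 21.0 and 20.7 in 16p11.2+/- mice. The glycolytic enzyme Aldoa had an FPKM between 289 and 309 in WT and between 145 and 160 in 16p11.2+/- mice. Each of 17 tested genes of the segment was at a lower mean level in 16p11.2+/- striatum (median log2 fold change -0.997), and 12 passed an adjusted p of 0.05 in edgeR's quasi-likelihood test.

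The tissue content of the 8 libraries was not uniform, and several of the 9 genes were highest in the same mice as marker genes of a cell type or region. Medium spiny neurons are the principal neurons of the striatum. Their 10 marker genes were detected in every mouse, with a summed FPKM of 1383, 1023, 1568 and 935 in WT-1015, WT-1041, WT-1061 and WT-1063. In 16p11.2+/- mice the sum was 1468 in DF-1018 and 1361 in DF-1059 but 359 in DF-1037 and 288 in DF-1062, and the most abundant marker, the opioid precursor Penk, ran from 111 in DF-1037 to 456 in DF-1018. The 7 markers of thalamus, a region next to the striatum, went another way. Their summed FPKM was 21.9, 28.3 and 17.5 in WT-1015, WT-1041 and WT-1061 and 23.0 in DF-1059, but 213 in WT-1063 and 116, 213 and 137 in DF-1018, DF-1037 and DF-1062. All 7 were detected in every mouse, and the most abundant, the kinase Prkcd, ran from 3.78 in WT-1061 to 82.0 in DF-1037. Markers of cortical glutamatergic neurons also varied, with a summed FPKM from 26.9 in DF-1062 to 180 in DF-1037. So DF-1037 and DF-1062 stood apart from the other mice in medium spiny neuron markers but were unlike each other in cortical ones. High thalamus markers were carried by 1 WT mouse and 3 16p11.2+/- mice. Values without these mice are given below.

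The axonal receptors of the paranode come first. Cntnap1 (ENSMUSG00000017167; chromosome 11, 101170523 to 101190724, forward strand in GENCODE M21, GRCm38) encodes Caspr, the axonal protein without which the septate-like junctions do not form. Its FPKM was 49.5, 38.4, 54.3 and 38.4 in WT-1015, WT-1041, WT-1061 and WT-1063, and 59.1, 40.7, 49.8 and 38.9 in DF-1018, DF-1037, DF-1059 and DF-1062. The groups overlapped over nearly their whole ranges, and in each genotype 2 mice lay near 40 and 2 near or above 50. The means of the WT and the 16p11.2+/- group were 45.2 ± 8.02 and 47.1 ± 9.29 (SD, n = 4 each), with an exact two-sided permutation p of 0.686. In edgeR the log2 fold change of 16p11.2+/- over WT was 0.04 (standard error 0.18, 95% interval -0.38 to 0.46, adjusted p = 0.961). This interval was the widest of the 9 genes and covers ratios between 0.771 and 1.38. About 3.97% of the exon length of Cntnap1 overlaps Plekhh3 on the other strand, and the strand setting of the counting is not given in the sources used here.

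Cntn1 (ENSMUSG00000055022; chromosome 15, 92051165 to 92341967, forward strand) encodes contactin, the lipid-anchored adhesion molecule that carries Caspr to the axon surface. Its FPKM was 45.5, 45.9, 52.5 and 67.2 in the WT mice and 53.9, 56.4, 52.5 and 71.2 in the 16p11.2+/- mice, in the same order of mice. The highest mouse of each genotype was WT-1063 or DF-1062, both among the mice with high thalamus markers. The means were 52.8 ± 10.1 and 58.5 ± 8.62 (SD, n = 4 each), and the exact permutation p was 0.429. The log2 fold change was 0.12 (standard error 0.14, 95% interval -0.20 to 0.45, edgeR adjusted p = 0.875). With the thalamus score as a covariate, the average over thalamus markers of log2 CPM (counts relative to the library total, TMM scaled), it was 0.01, and with the score of oligodendrocyte myelin genes it was -0.024.

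**Figure D1:**
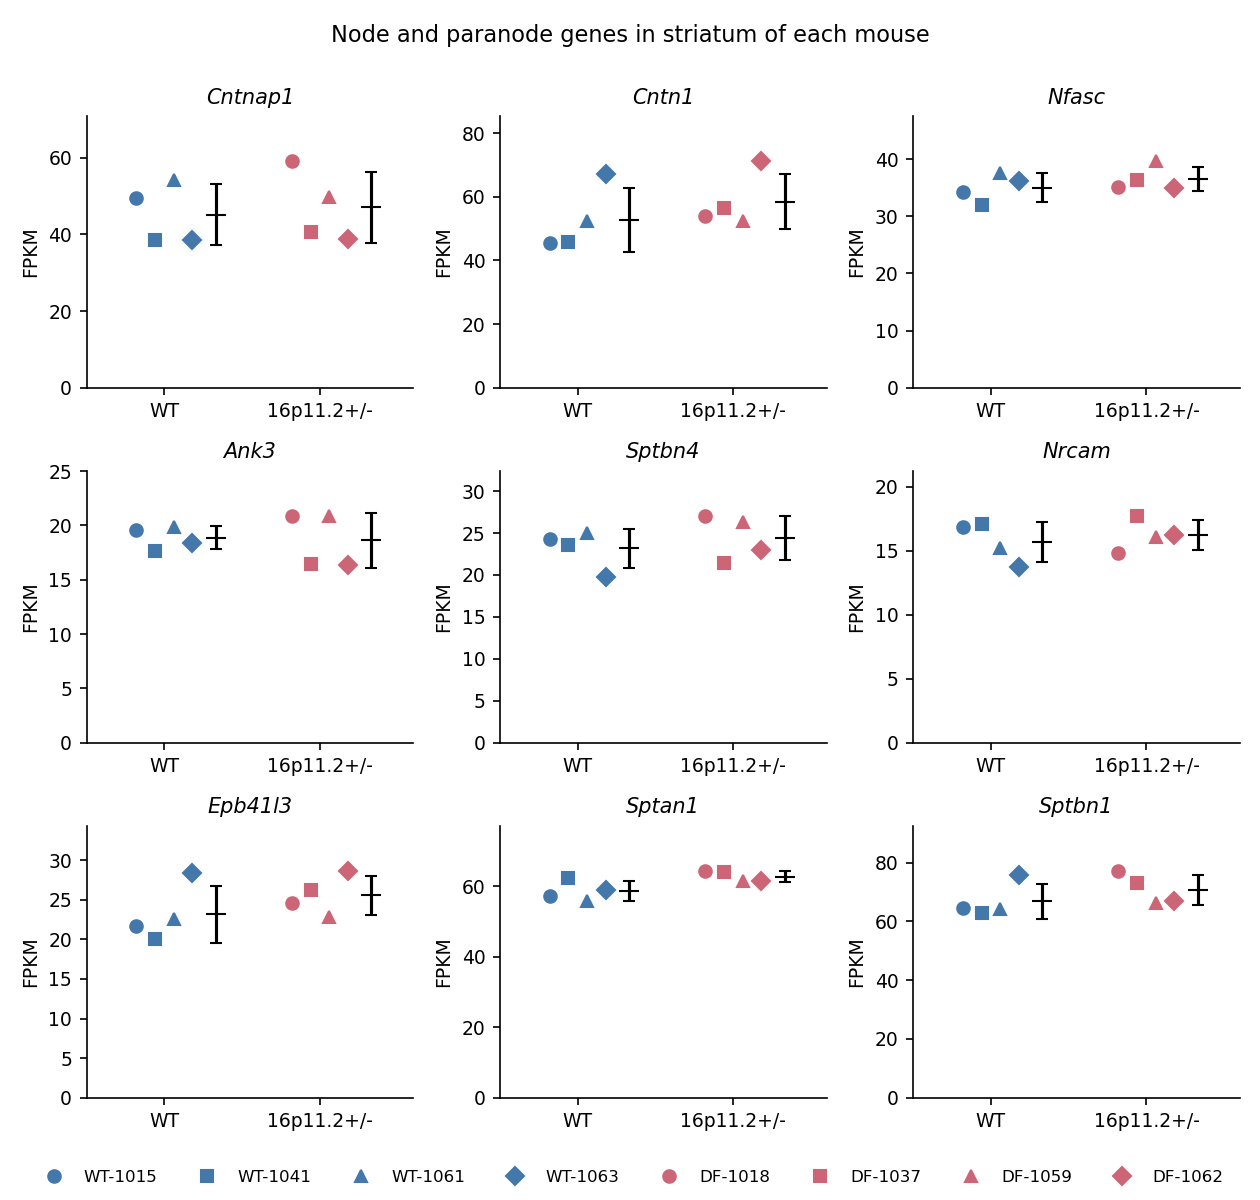
FPKM of the 9 node and paranode genes in each mouse, 1 panel a gene, with WT and 16p11.2+/- mice side by side; points are mice, bars are the group mean and its SD (n = 4 a group). In each panel the points of the genotypes overlap, and the bars are widest for Cntnap1 and Cntn1.

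Caspr and contactin act as a pair on the axon, but their transcripts did not follow each other from mouse to mouse. The ratio of Cntnap1 to Cntn1 FPKM was 1.09, 0.838, 1.03 and 0.572 in WT-1015, WT-1041, WT-1061 and WT-1063 and 1.10, 0.721, 0.948 and 0.546 in DF-1018, DF-1037, DF-1059 and DF-1062. It was lowest in WT-1063 and DF-1062 and above 1 in WT-1015, WT-1061 and DF-1018, so each genotype held both high and low ratios. The difference between the genotypes was -0.10 on the log2 scale, with an exact permutation p of 0.771 and an adjusted p over the 4 ratios examined of 0.914. Of the 4 ratios this one had the widest range over the 8 mice on the log2 scale.

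The adhesion molecules of the L1 family, which link ankyrin to the cell surface, were next. Nfasc (ENSMUSG00000026442; chromosome 1, 132564690 to 132741797, reverse strand) encodes neurofascin, whose neuronal isoform lies at the node and whose glial isoform is the partner of Caspr and contactin. Its FPKM was 34.2, 31.9, 37.6 and 36.2 in WT mice and 35.2, 36.3, 39.6 and 35.0 in 16p11.2+/- mice. All 8 values lay within a factor of 1.24 of each other, and the highest mouse of each genotype was WT-1061 or DF-1059. The means were 35.0 ± 2.51 and 36.5 ± 2.14 (SD, n = 4 each), the exact permutation p was 0.400 and the log2 fold change was 0.04 (standard error 0.09, edgeR adjusted p = 0.930). The count sums over the neuronal and glial isoforms of 6 coding transcripts, so a shift from one to the other would not appear in it.

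Nrcam (ENSMUSG00000020598; chromosome 12, 44328885 to 44601964, forward strand) encodes NrCAM, an L1 family protein that gathers early at forming nodes. Its FPKM was 16.9, 17.1, 15.2 and 13.7 in WT and 14.8, 17.7, 16.1 and 16.3 in 16p11.2+/- mice. It was the lowest of the 9 genes in level, and its lowest mouse, WT-1063, was a WT mouse. Its highest mice, DF-1037, WT-1041 and WT-1015, also had the highest summed FPKM of cortical glutamatergic markers, 180, 146 and 124. A link was not tested. The means were 15.7 ± 1.58 and 16.2 ± 1.18 (SD, n = 4 each), with an exact permutation p of 0.600 and a log2 fold change of 0.02 (standard error 0.10, edgeR adjusted p = 0.960). The ratio of Nfasc to Nrcam ran from 1.86 to 2.64 over the mice and differed between the genotypes by 0.01 on the log2 scale (exact permutation p = 0.914).

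The nodal scaffold is built by Ank3 and Sptbn4. Ank3 (ENSMUSG00000069601; chromosome 10, 69398773 to 70027438, forward strand) encodes ankyrin G, which binds sodium channels, neurofascin and NrCAM at nodes and initial segments. Its FPKM was 19.6, 17.7, 19.9 and 18.4 in WT-1015, WT-1041, WT-1061 and WT-1063 and 20.8, 16.5, 20.8 and 16.4 in DF-1018, DF-1037, DF-1059 and DF-1062. The 16p11.2+/- mice held both the 2 highest and the 2 lowest values of Ank3, with the WT mice between them. The 2 lowest were DF-1037 and DF-1062, the mice in which medium spiny neuron markers were lowest. The means were 18.9 ± 1.02 and 18.6 ± 2.56 (SD, n = 4 each), the exact permutation p was 0.83 and the log2 fold change was -0.04 (standard error 0.13, edgeR adjusted p = 0.952). Ank3 was the only one of the 9 genes with a negative log2 fold change, and without DF-1037 and DF-1062 it was 0.15. The FPKM of Ank3 rests on 34838 bases of merged exons from 31 coding transcripts, and its level per length depends on that choice.

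Sptbn4 (ENSMUSG00000011751; chromosome 7, 27356383 to 27447686, reverse strand) encodes beta IV spectrin, which ties ankyrin G to the actin skeleton. About 3.94% of its exon length overlaps other genes, Gm20479 on the same strand and Gm44924 on the other. Sptbn4 lies on the same chromosome as the deleted segment but outside it. Its FPKM was 24.3, 23.6, 25.0 and 19.8 in WT and 27.0, 21.4, 26.3 and 23.0 in 16p11.2+/- mice. As for Ank3, DF-1018 and DF-1059 were the 2 highest mice, but the lowest here was WT-1063. The means were 23.2 ± 2.31 and 24.4 ± 2.66 (SD, n = 4 each), with an exact permutation p of 0.543 and a log2 fold change of 0.06 (standard error 0.12, edgeR adjusted p = 0.928). Sptbn4 stood at 1.08 to 1.40 times the FPKM of Ank3 in the 8 mice, and this ratio differed by 0.10 on the log2 scale between the genotypes (exact permutation p = 0.229). Without WT-1041 this difference was 0.14, with an exact permutation p of 0.0286 that is not adjusted over the 4 ratios. It is the smallest p that 3 mice against 4 allow. Without WT-1063 the difference was 0.040.

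**Figure D2:**
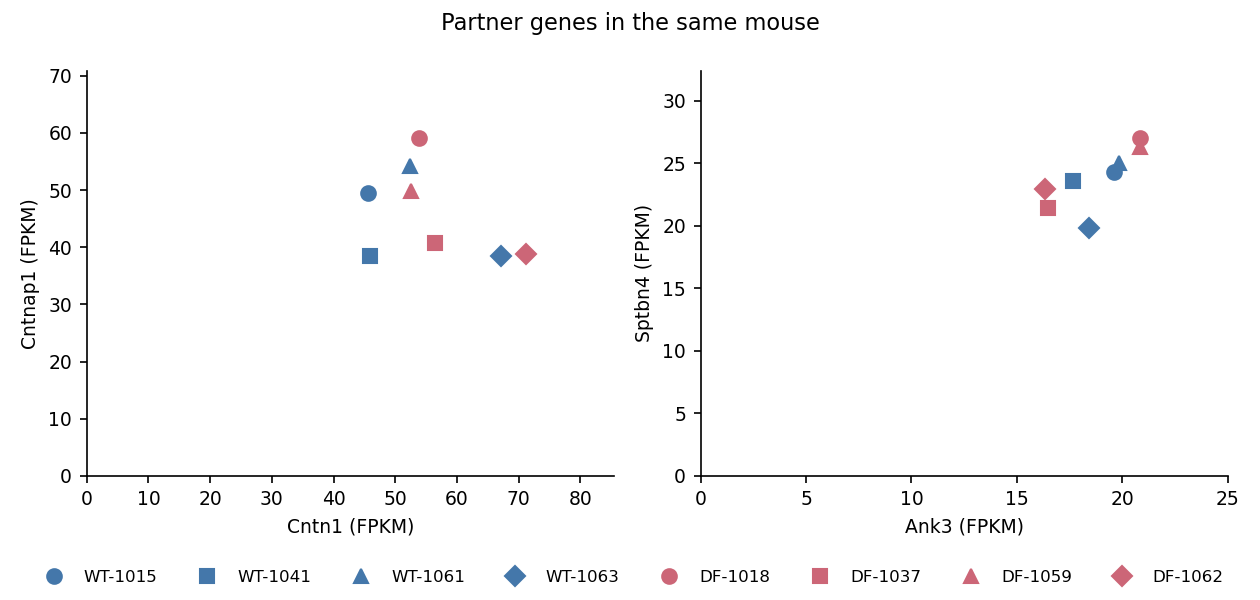
FPKM of Cntn1 (horizontal) and Cntnap1 (vertical) on the left and of Ank3 (horizontal) and Sptbn4 (vertical) on the right; each point is 1 mouse, with its own symbol and the colour of its genotype. On the left WT-1063 and DF-1062 are highest in Cntn1 and near the bottom in Cntnap1; on the right DF-1018 and DF-1059 are highest in both genes.

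In the submembrane skeleton of the paranode the alpha II and beta II spectrins had the highest levels of the 9 genes. Epb41l3 (ENSMUSG00000024044; chromosome 17, 69075683 to 69289989, forward strand) encodes the scaffold that binds Caspr under the axon membrane. Its FPKM was 21.6, 20.1, 22.6 and 28.4 in WT-1015, WT-1041, WT-1061 and WT-1063 and 24.6, 26.3, 22.8 and 28.6 in DF-1018, DF-1037, DF-1059 and DF-1062. As for Cntn1, the highest mice were WT-1063 and DF-1062, and the other WT mice lay below every 16p11.2+/- mouse. The means were 23.2 ± 3.62 and 25.6 ± 2.48 (SD, n = 4 each), with an exact permutation p of 0.286 and a log2 fold change of 0.12 (standard error 0.12, 95% interval -0.14 to 0.39, edgeR p = 0.331, adjusted p = 0.864). Without WT-1063 the log2 fold change was 0.23, with an unadjusted edgeR p of 0.0456 and an adjusted p of 0.601, and 8.21% of all tested genes had an unadjusted p under 0.05 in that fit. With the thalamus score as a covariate and all 8 mice it was 0.01.

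Sptan1 (ENSMUSG00000057738; chromosome 2, 29965560 to 30031451, forward strand) encodes alpha II spectrin, the partner of both beta spectrins. Its FPKM was 57.2, 62.3, 55.9 and 58.8 in WT and 64.2, 63.9, 61.3 and 61.4 in 16p11.2+/- mice. Only WT-1041 reached the range of the 16p11.2+/- mice, and the other 3 WT mice lay below all of them. The means were 58.6 ± 2.78 and 62.7 ± 1.58 (SD, n = 4 each), and the exact permutation p of 0.0857 was the smallest of the 9 genes, where 4 mice against 4 allow 0.0286 at the least. After TMM scaling the log2 fold change was 0.08 (standard error 0.08, 95% interval -0.11 to 0.27, edgeR adjusted p = 0.873). Without WT-1041 the FPKM of the groups did not overlap (exact permutation p = 0.0286), which then held for 5.24% of all tested genes. The highest and the lowest mouse differed 1.15 times, the narrowest range among the 9 genes. Its SD of log2 CPM within the genotypes was larger than that of 3.41% of all tested genes, against 58.2% for Cntnap1.

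Sptbn1 (ENSMUSG00000020315; chromosome 11, 30099395 to 30268175, reverse strand) encodes beta II spectrin, which lines the axon and the paranode. Its FPKM was 64.5, 62.7, 64.1 and 75.8 in WT and 77.0, 72.9, 66.1 and 66.9 in 16p11.2+/- mice. Of the WT mice only WT-1063 reached the values of the 16p11.2+/- mice. The means were 66.8 ± 6.03 and 70.7 ± 5.19 (SD, n = 4 each), with an exact permutation p of 0.314 and a log2 fold change of 0.06 (standard error 0.11, edgeR adjusted p = 0.912). Sptan1 stood between 0.776 and 0.994 times Sptbn1 in FPKM in the 8 mice, with a genotype difference of 0.02 in this ratio on the log2 scale (exact permutation p = 0.886). Without WT-1063 the FPKM of 3 genes, Cntn1, Epb41l3 and Sptbn1, did not overlap between the groups, a pattern that 10.2% of all tested genes then showed.

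Of the 9 genes together, 0 passed an adjusted p of 0.05 in edgeR, where 0.109% of all tested genes did and 0.0929% did in the direction of lower expression. An unadjusted p under 0.05 was found for 0 of the 9, where 4.32% of all genes had one, 1.95% on the side of higher and 2.37% on the side of lower expression. DESeq2 and limma-voom also called 0 of the 9. The FPKM of the groups overlapped for each of the 9 genes, whereas 2.83% of all genes had groups that did not overlap, 1.62% with the 16p11.2+/- mice below. The log2 fold change was above 0 for 8 of the 9 genes, beside 48.2% of all genes, with a median of 0.06 beside -0.01 for all genes. The largest was 0.12, for Cntn1 and Epb41l3, and without WT-1063 it was 0.26 for Cntn1, 0.23 for Epb41l3 and 0.13 for Sptbn1. Without this mouse 4 of the 9 genes were under 0, Ank3 at -0.053, Nrcam at -0.040, Cntnap1 at -0.029 and Sptbn4 at -0.016. The 95% intervals of the 9 genes ran from -0.38 to 0.46. A log2 fold change of -1, near the median of the deleted segment, therefore lay outside the interval of every gene. Differences that lie within an interval remain possible, from -0.38 to 0.46 for Cntnap1, the widest, and from -0.11 to 0.27 for Sptan1, the narrowest. There were 23 fits, this one and those with other settings or fewer mice. The fit with 1 16p11.2+/- mouse is no test and is left aside. In the others none of the 9 genes passed the adjusted threshold, and the smallest adjusted p was 0.601 in edgeR, for Epb41l3 without WT-1063.

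**Figure D3:**
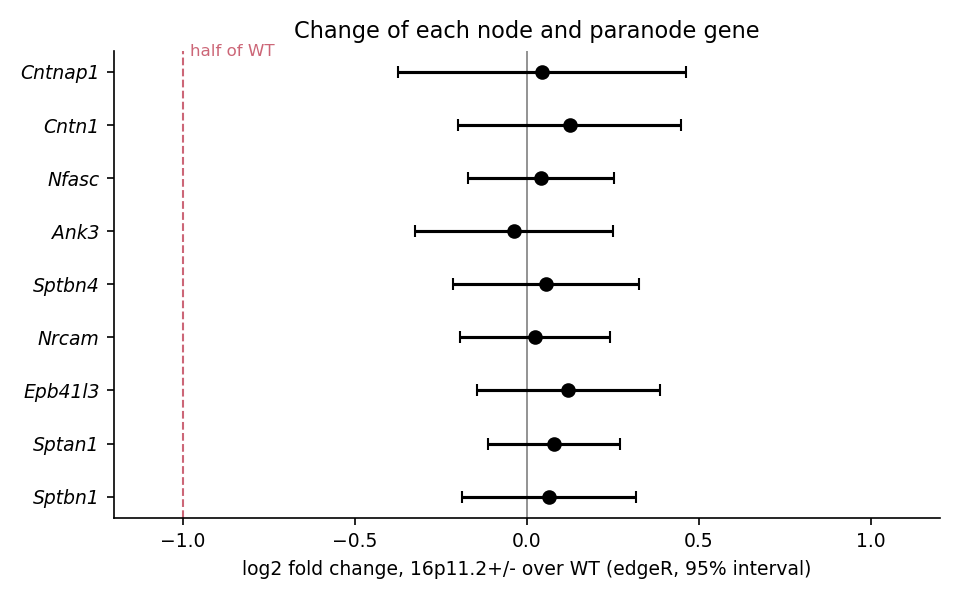
Log2 fold change of 16p11.2+/- over WT striatum for the 9 genes (edgeR, 4 mice a group); points are estimates, lines the 95% intervals, the solid vertical line marks no difference and the dashed line a level at -1. Each interval includes 0 and none reaches -1, and the widest, that of Cntnap1, runs from -0.38 to 0.46.

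Ordered by FPKM, which compares genes per length, the submembrane spectrins stood first, the paranodal pair next, and the ankyrin, the nodal spectrin and NrCAM last. The mean over the 8 mice was 68.8 for Sptbn1, 60.6 for Sptan1, 55.6 for Cntn1 and 46.1 for Cntnap1. It was 35.8 for Nfasc, 24.4 for Epb41l3, 23.8 for Sptbn4, 18.8 for Ank3 and 16.0 for Nrcam. The step from Sptbn1 to Sptan1 held in 8 of 8 mice, as did those from Cntnap1 to Nfasc, from Nfasc to Epb41l3 and from Sptbn4 to Ank3. Sptan1 exceeded Cntn1 in 6 of 8 mice, Cntn1 exceeded Cntnap1 in 5 and Ank3 exceeded Nrcam in 7. Epb41l3 exceeded Sptbn4 in 3 of 8 mice although its mean was higher, so this pair had no order beyond the spread of the mice. The order also depends on the merged exon length of each gene, 34838 bases for Ank3 and 5875 for Cntnap1. That length is the same in every mouse, so agreement between mice does not check it. In counts Ank3, at 8804 to 11803, lay above Cntnap1, at 3459 to 5289. All 9 genes were well expressed, with Nrcam above 83.4% and Sptbn1 above 97.7% of the tested genes in mean FPKM.

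Some of the 9 genes shared the mice in which they were highest, and these mice were not of 1 genotype. Cntnap1, Ank3 and Sptbn4 had their 4 highest FPKM values in the same mice, WT-1015, WT-1061, DF-1018 and DF-1059. These 4 mice, 2 of each genotype, also had the highest medium spiny neuron scores, 8.36, 8.48, 8.43 and 8.27, while the other mice had 7.90, 7.74, 6.39 and 5.96. The same 4 mice were the highest for 788 of the tested genes, or 4.31%. Because the tissue was sequenced in bulk, fewer cells of a type and less RNA per cell cannot be told apart. With the medium spiny neuron score as a covariate, an alternative chosen after seeing the data, the log2 fold change was 0.27 for Cntnap1, 0.19 for Sptbn4 and 0.11 for Ank3, each with an edgeR adjusted p of 0.9995. Their unadjusted edgeR p was 0.052, 0.051 and 0.14, and 3.07% of all tested genes had one under 0.05. The lowest scores, 6.39 and 5.96, were both of 16p11.2+/- mice, so the score is partly tied to the genotype. In that fit the log2 fold change was 0.10 for Sptan1, 0.098 for Nfasc and 0.096 for Sptbn1, and it was 0.051 for Epb41l3, 0.022 for Cntn1 and 0.012 for Nrcam. Without DF-1037 and DF-1062 it was 0.28 for Cntnap1, 0.21 for Sptbn4 and 0.15 for Ank3, and it was 0.10 for Nfasc, 0.11 for Sptan1, 0.11 for Sptbn1 and -0.018 for Nrcam. Cntn1 and Epb41l3 then stood at 0.020 and 0.042, and no adjusted p of the 9 genes passed 0.05.

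Cntn1 and Epb41l3 were highest in another set of mice, WT-1063, DF-1018, DF-1037 and DF-1062, and so was Sptbn1 in FPKM but not after TMM scaling. These were the 4 mice with the highest thalamus scores, 7.09, 6.18, 7.06 and 6.24, beside 3.83 to 4.03 in the others. The set holds 1 WT mouse and 3 16p11.2+/- mice, and it was also the highest for 913 of all tested genes, or 4.99%. With the thalamus score as a covariate the log2 fold change of Sptbn1 was -0.0059 in place of 0.06. In the same fit it was 0.17 for Sptbn4, 0.16 for Cntnap1, 0.077 for Nrcam, 0.074 for Sptan1, 0.057 for Nfasc and 0.023 for Ank3. Without all 4 of these mice, 3 WT mice and 1 16p11.2+/- mouse remained, which is assumed to vary like the others, so this fit is no test of the genotype. The log2 fold change was then 0.11 for Cntn1, 0.071 for Epb41l3 and 0.033 for Sptbn1. It was 0.18 for Nfasc, 0.11 for Ank3, 0.094 for Sptbn4, 0.051 for Sptan1, 0.051 for Cntnap1 and -0.045 for Nrcam. Whether tissue content accounts for the spread of these genes was not tested.

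**Figure D4:**
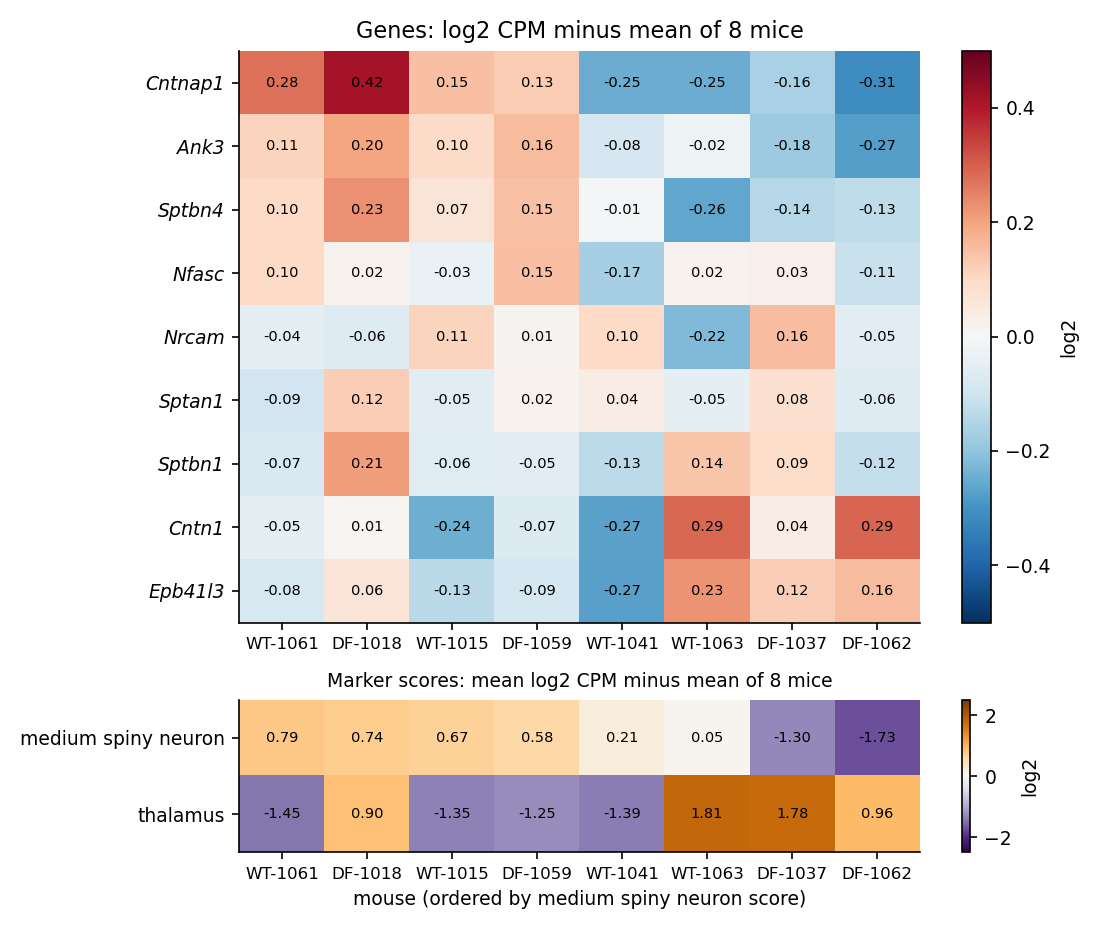
Heat map of log2 CPM of the 9 genes in each mouse minus the mean of the gene over the 8 mice, with the scores of medium spiny neuron and thalamus markers treated alike; columns are mice in the order of the medium spiny neuron score. Cntnap1, Ank3 and Sptbn4 are above their mean at the end where that score is high, and Cntn1 and Epb41l3 are above theirs in the mice with high thalamus scores.

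The sequences before the start sites of 3 genes are shown because Cntn1 and Epb41l3 had the same 4 highest mice and Sptbn4 another set, which shares DF-1018 with it. They are the 250 bases upstream of the RefSeq start (GRCm38.p6), given 5′ to 3′ on the strand of the gene, with GC boxes (GGGCGG on either strand) in capitals. They lie at chr15:92050915-92051164 (plus strand) for Cntn1, chr17:69075427-69075676 (plus strand) for Epb41l3 and chr7:27446590-27446839 (minus strand) for Sptbn4, and 10 bases of the last lie in an annotated exon.
Cntn1: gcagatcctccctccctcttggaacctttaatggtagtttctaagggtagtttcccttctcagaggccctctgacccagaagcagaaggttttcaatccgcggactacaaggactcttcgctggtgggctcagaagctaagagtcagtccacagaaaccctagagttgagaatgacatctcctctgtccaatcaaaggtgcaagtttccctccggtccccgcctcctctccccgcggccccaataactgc
Epb41l3: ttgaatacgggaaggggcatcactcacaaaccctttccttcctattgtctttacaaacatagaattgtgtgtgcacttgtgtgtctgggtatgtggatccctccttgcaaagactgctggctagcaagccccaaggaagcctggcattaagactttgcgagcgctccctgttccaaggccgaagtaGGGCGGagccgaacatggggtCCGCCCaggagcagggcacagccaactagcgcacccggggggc
Sptbn4: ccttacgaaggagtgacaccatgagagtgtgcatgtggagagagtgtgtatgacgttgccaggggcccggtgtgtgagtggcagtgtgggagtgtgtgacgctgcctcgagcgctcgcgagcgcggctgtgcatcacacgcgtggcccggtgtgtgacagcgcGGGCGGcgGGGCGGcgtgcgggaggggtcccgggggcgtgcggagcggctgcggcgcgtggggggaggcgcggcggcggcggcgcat
Cntn1 held no GC box and 2 CCAAT boxes (CCAAT on either strand), Epb41l3 held 2 GC boxes and Sptbn4 held 2. None of the 3 held the letters TATAAA on either strand. Over 32851 promoters of this length, 32.7% held a GC box, 33.8% a CCAAT box and 12.4% the letters TATAAA, so these matches are frequent ones. The share of G and C was 53.6% in Cntn1, 56.0% in Epb41l3 and 72.0% in Sptbn4, against a median of 52.4% over all promoters. Promoters of 7 of the 9 genes were matched, not those of Cntnap1 and Ank3.

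The genes most like each of the 9 over the 8 mice were taken among genes with a mean FPKM of at least 1, by Pearson's r of log2 CPM, as a description. The closest gene was Zmat3 for Cntnap1 (r = 0.978), Fam69b for Cntn1 (r = 0.993), Tlnrd1 for Ank3 (r = 0.991) and Reps2 for Sptbn1 (r = 0.992). It was Mppe1 for Nfasc (r = 0.982), Fam189a1 for Nrcam (r = 0.982), Tmem127 for Epb41l3 (r = 0.979), a pseudogene of Tcea1 for Sptan1 (r = 0.955) and an unnamed transcript for Sptbn4 (r = 0.978). Within the 9 genes the closest were Cntn1 and Epb41l3 (r = 0.932), Cntnap1 and Ank3 (r = 0.881) and Cntnap1 and Sptbn4 (r = 0.875). The 8 points of each coefficient share the tissue content of the mice, and the closest gene was picked out of 14582.

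Other genes of the node were examined as lists. Of 12 sodium and potassium channel genes of the node, 8 had a log2 fold change under 0 and 4 had one above 0, with a median of -0.04, and none had an unadjusted edgeR p under 0.05. The most abundant was Scn4b, a sodium channel beta subunit that is strongly expressed in striatum. Its FPKM was 267, 162, 257 and 145 in WT mice and 227, 70.4, 199 and 23.6 in DF-1018, DF-1037, DF-1059 and DF-1062. It was lowest in the 2 mice with the lowest medium spiny neuron markers, and its log2 fold change was -0.68 (standard error 0.61, edgeR adjusted p = 0.861, exact permutation p = 0.257). Scn1a, an alpha subunit of nodes and initial segments, had means of 13.7 ± 4.56 in WT and 18.2 ± 2.67 in 16p11.2+/- mice (SD, n = 4 each; log2 fold change 0.39, edgeR adjusted p = 0.859, exact permutation p = 0.171). So none of the channel genes, and neither gene of the scaffold that anchors the channels, passed the test.

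The matrix around the node held the gene with the smallest edgeR p of these lists. Hapln2, a link protein of the perinodal matrix made by oligodendrocytes, had an FPKM of 26.1, 25.4, 25.7 and 27.8 in WT mice and of 21.6, 19.4, 19.7 and 18.2 in 16p11.2+/- mice. All 16p11.2+/- mice lay below all WT mice, as for 1.62% of all genes, with an exact permutation p of 0.0286, the smallest possible. On the log2 scale the fold change was -0.43 (standard error 0.09), and its edgeR p of 0.00085 became an adjusted p of 0.576 over all 18294 genes. Of the 8 genes of this list 4 were under 0 and 4 above 0 in log2 fold change, with a median of 0.04. Bcan, the proteoglycan brevican, had means of 51.5 ± 4.28 and 56.4 ± 3.95 (SD, n = 4 each; edgeR adjusted p = 0.859).

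The glial face of the paranode was given by 6 genes of its lipids and loops. Each of the 6 was under 0 in log2 fold change, with a median of -0.36, beside 51.8% of all tested genes under 0. Of the 6, 2 genes, Mal and Ugt8a, had an unadjusted edgeR p under 0.05 on the lower side, beside 2.37% of all tested genes. Mal, a proteolipid of myelin rafts, had an FPKM of 181, 187, 215 and 181 in WT and 150, 145, 165 and 112 in 16p11.2+/- mice, without overlap as for 1.62% of all genes on the lower side (log2 fold change -0.44, standard error 0.14, exact permutation p = 0.0286, edgeR adjusted p = 0.859). Ugt8a makes galactosylceramide, a lipid that paranodes need, and its means were 25.2 ± 3.64 in WT and 19.7 ± 2.59 in 16p11.2+/- mice (SD, n = 4 each; log2 fold change -0.37, exact permutation p = 0.0857, edgeR adjusted p = 0.859). Among 5 internode adhesion genes Mag, the glial adhesion molecule of the inner myelin wrap, had a log2 fold change of -0.33 (exact permutation p = 0.0571, edgeR adjusted p = 0.859), and 3 of the 5 were positive. Cadm4, a glial cell adhesion molecule of the internode, had a log2 fold change of 0.09. The summed FPKM of 10 oligodendrocyte myelin markers was 2177, 2153, 2529 and 2213 in WT and 1708, 1889, 1888 and 1371 in 16p11.2+/- mice and these groups did not overlap. The log2 fold change was under 0 for all 10 markers (median -0.42). Of the 10, 7 had an unadjusted p under 0.05, beside 2.37% of all genes on that side, but none passed after adjustment. Mal and Mag are also among these 10 markers, so the lists share genes. The 9 node and paranode genes had a median of 0.06 in the same fit, and the difference between the lists was not tested. With the oligodendrocyte score as a covariate the log2 fold change was 0.40 for Cntnap1, 0.21 for Nfasc, 0.18 for Sptbn4, 0.16 for Ank3, 0.16 for Sptbn1 and 0.12 for Sptan1. It was 0.073 for Nrcam, 0.073 for Epb41l3 and -0.024 for Cntn1, and none of the 9 genes had an adjusted p under 0.05. This score ran from 8.68 to 9.03 in WT and from 8.05 to 8.62 in 16p11.2+/- mice, so in this fit the score and the genotype cannot be told apart well.

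Beyond the paranode, the 11 genes of the juxtaparanode, where potassium channels are clustered, had a median log2 fold change of -0.04, with 6 negative and 5 positive and none with an unadjusted p under 0.05. Kcnab2, a potassium channel subunit and the most abundant of them, had a log2 fold change of 0.05. Cntn2, a contactin made by neurons and oligodendrocytes, had means of 30.6 ± 1.76 in WT and 28.1 ± 0.815 in 16p11.2+/- mice (SD, n = 4 each; log2 fold change -0.15, exact permutation p = 0.0857, edgeR adjusted p = 0.859). Of 5 genes of the initial segment, which shares Ank3, Sptbn4, Nfasc and Nrcam with the node, 3 were negative and 2 positive. Ndel1, a dynein regulator, had a log2 fold change of -0.09. Mical3, an actin-oxidising enzyme, had means of 6.53 ± 0.169 and 7.07 ± 0.198 (SD, n = 4 each) without overlap, as for 2.83% of all genes counting both directions. Its log2 fold change was 0.09, with an edgeR adjusted p of 0.859.

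The paralogs of the 9 genes were also counted. Of 11 tested ankyrin, spectrin, adducin and Epb41 family paralogs 7 were negative and 4 positive, with a median log2 fold change of -0.07, and 2 of them, Ank1 and Add3, had an unadjusted edgeR p under 0.05, beside 4.32% of all tested genes. Ank1, another ankyrin, had an FPKM of 2.47, 2.43, 3.34 and 5.24 in WT and 4.75, 6.06, 4.26 and 7.13 in 16p11.2+/- mice, with WT-1063 again the highest WT mouse (log2 fold change 0.69, standard error 0.26, exact permutation p = 0.0857, edgeR adjusted p = 0.859). Add3, an adducin that caps actin at the spectrin skeleton, had means of 35.5 ± 0.695 and 31.7 ± 1.13 (SD, n = 4 each) without overlap, again as for 1.62% of all genes (log2 fold change -0.18, exact permutation p = 0.0286, edgeR adjusted p = 0.859). Of 13 contactin, Caspr and L1 family paralogs 9 were positive and 4 negative, with a median of 0.27, and 2 of them, Cntnap5c and Cntn3, had an unadjusted edgeR p under 0.05 on the higher side. Over all tested genes 48.2% were positive and 1.95% had such a p on that side. Cntn2 and Cntnap2 of these paralogs are also among the juxtaparanode genes, so those lists share genes. Cntnap5c, a Caspr paralog, had means of 0.866 ± 0.157 and 1.42 ± 0.389 (SD, n = 4 each; log2 fold change 0.68, exact permutation p = 0.0286, edgeR adjusted p = 0.859). Cntn3, a contactin, had means of 3.91 ± 0.525 and 5.11 ± 0.867 (SD, n = 4 each; log2 fold change 0.36, exact permutation p = 0.0571, edgeR adjusted p = 0.859). Over the 8 lists of nodes, paranodes, internodes, initial segments and paralogs no gene passed the threshold after adjustment over all genes.

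**Figure D5:**
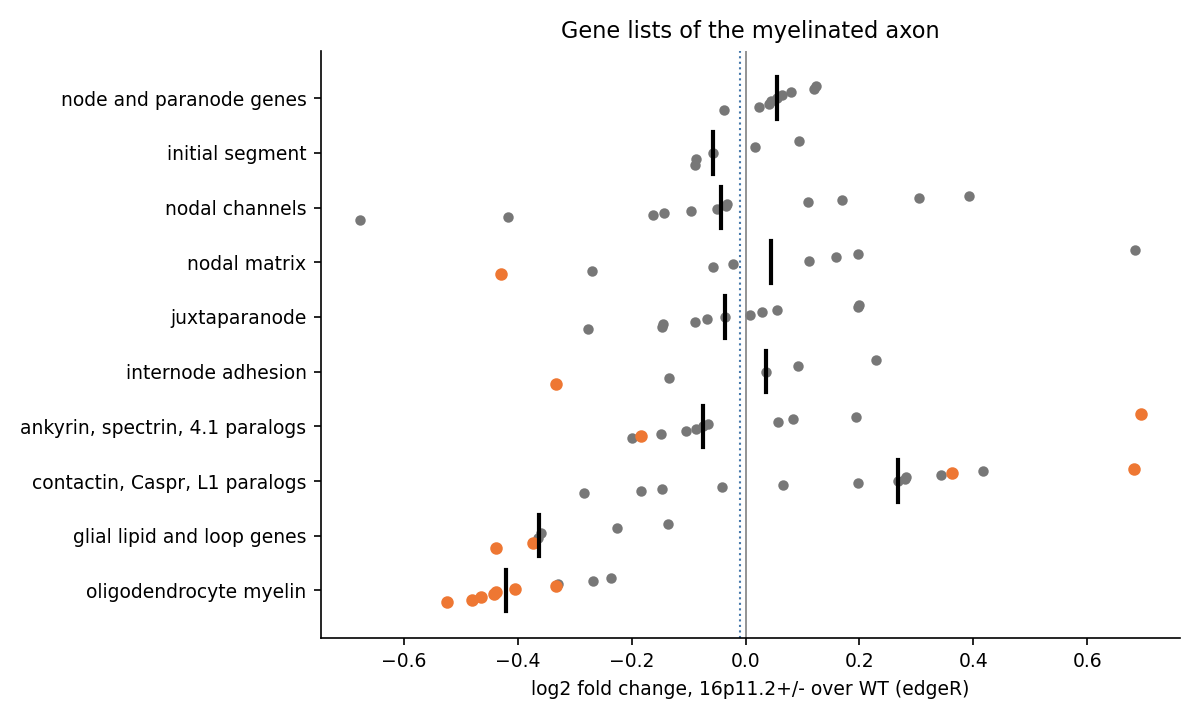
Log2 fold change of 16p11.2+/- over WT striatum (edgeR) for each tested gene of the 9 node and paranode genes and of the other lists; 1 point a gene, orange where the unadjusted p is under 0.05, with a black bar at the median of the list and a dotted line at the median of all genes. The 9 genes lie near 0 with a median of 0.06, and the glial lipid and loop genes and the oligodendrocyte myelin genes lie below it with medians of -0.36 and -0.42. These last lists share Mal, and Mag, Cntn2 and Cntnap2 are also each in more than 1 list.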

How the data were processed

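RNA from the striatum of 4 WT and 4 16p11.2+/- mice was compared. Per the study's methods, the authors cleaned the reads, mapped them with Hisat2 and counted them on genes with Htseq-count. Raw counts and FPKM per gene and mouse were deposited. For 100% of 17097 genes with at least 20 counts, FPKM equals the count over 1 set length per gene and over the library total, within 0.1%. The submitters' processing notes list Bowtie 0.12.2 and the builds mm8 and mm9. The annotation used for counting is not given in the sources used here. GENCODE M21 (GRCm38), used for positions, gives the implied length for 95.7% of 16700 genes. The authors' own comparison table (group means, fold changes and p-values) and a summary of FPKM in bins were not used.

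The quasi-likelihood test of edgeR 4.0.16 (R 4.3.3) was run on counts after TMM scaling and filterByExpr (count of at least 10, total of at least 15), with Benjamini-Hochberg adjustment over 18294 genes and a threshold of 0.05. Exact permutation tests of FPKM were two-sided and ran over the 70 assignments of the mice. Scores are the mean log2 CPM of a marker list with a prior count of 2. Replicate libraries differed by 8.88 to 62.9 times the sampling noise, so each was counted as 1 sample. Alternatives were DESeq2 1.42.0, limma 3.58.1 (voom, and log2 FPKM plus 1 or 0.1), RLE factors, unscaled library totals, other filters, marker scores as covariates and each mouse left out. The medium spiny neuron covariate and the removal of several mice at once were chosen after seeing the data. The 9 genes and the lists were chosen with earlier results of these data known. In each list the gene of highest mean FPKM, the gene of smallest p and up to 3 more genes with an unadjusted p under 0.05 were named. Some genes that this rule names are not reported here. The code was tested on simulated data.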

Additional observations from a re-analysis of the deposited data

Results flagged for a closer look

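Sptbn1 FPKM in WT mice was examined because WT-1063 stood far from the other WT mice, at 75.8 against 62.7 to 64.5. Its gap to the nearest mouse was 0.862 of the range of the group, above Dixon's 95% critical value for 4 mice. The thalamus score of the same mouse stood apart as well, at 7.09 against 3.83 to 3.93 in the other WT mice, with a gap of 0.968 of the range. These were 2 of 62 groups of 4 mice examined, where chance alone flags about 1 in 20. Without WT-1063 the log2 fold change of Epb41l3 was 0.23 in place of 0.12. WT-1063 also had the highest summed FPKM of markers of choroid plexus, an epithelium of the ventricle wall, at 4414. Among WT mice it had the lowest summed FPKM of cortical glutamatergic markers, at 42.5. Whether the level of Sptbn1 in WT-1063 follows from any of these markers was not tested.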

How the results depend on the processing

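None of the 9 genes passed an adjusted p of 0.05 in any of 23 fits. The number of genes called in all, 20 with edgeR, was 31 with DESeq2, 1 with the oligodendrocyte score as a covariate, 11 without DF-1037 and DF-1062, and 8 to 18 with each mouse left out. Of the 9 genes, 1 had a negative log2 fold change, against 0 with the medium spiny neuron covariate and 0 to 4 with each mouse left out. With each mouse left out, 0 to 1 of the 9 had an unadjusted p under 0.05 and 0 to 3 had FPKM that did not overlap. An exact permutation p under 0.05, not adjusted over the 4 ratios, was found for 0 to 1 of them. The log2 fold change of Ank3, -0.04, was 0.023, 0.16 and 0.11 with the thalamus, oligodendrocyte and medium spiny neuron scores as covariates, 0.15 without DF-1037 and DF-1062 and 0.11 without the 4 mice with high thalamus markers. That of Sptbn1 was -0.0059 with the thalamus covariate, that of Cntn1 was -0.024 with the oligodendrocyte covariate, and that of Nrcam was -0.018 without DF-1037 and DF-1062 and -0.045 without the 4 mice. With the score of cortical glutamatergic markers as a covariate, the log2 fold change was 0.062 for Cntn1, 0.078 for Epb41l3, 0.040 for Sptbn1 and 0.086 for Nrcam. With each mouse left out, the log2 fold change ran from -0.0049 to 0.10 for Nfasc, from -0.016 to 0.12 for Sptbn4, from 0.057 to 0.26 for Cntn1, from 0.054 to 0.23 for Epb41l3, from 0.012 to 0.13 for Sptbn1, from 0.060 to 0.12 for Sptan1, from -0.11 to 0.052 for Ank3, from -0.095 to 0.16 for Cntnap1 and from -0.040 to 0.072 for Nrcam. The FPKM difference ran from -2.04 to 4.99 for Cntnap1, from 1.5 to 10.5 for Cntn1, from -0.997 to 0.499 for Ank3 and from -0.169 to 0.968 for Nrcam. The log2 ratio difference ran from -0.29 to 0.084 for Cntnap1 to Cntn1, from -0.044 to 0.075 for Sptan1 to Sptbn1, from 0.040 to 0.14 for Sptbn4 to Ank3 and from -0.071 to 0.10 for Nfasc to Nrcam. The cause of these changes was not tested. No paired analysis was possible because no replicate number occurs in both groups. With 4 mice a group the intervals are wide, and gene counts do not separate isoforms.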

Other observations

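The lists of other cell types in the tissue had no gene past the adjusted threshold. All 10 medium spiny neuron markers were under 0 in log2 fold change (median -0.52) and all 7 thalamus markers above 0 (median 0.66), and neither list held a gene with an unadjusted edgeR p under 0.05. Of 7 astrocyte markers 5 were positive (median 0.04), of 6 microglia markers 5 were negative (median -0.11), and of 5 endothelial markers 4 were negative (median -0.05). Of 6 oligodendrocyte precursor markers 3 were positive and 3 negative (median -0.02). Of 8 markers of cortical glutamatergic neurons 7 were negative (median -0.55), with a summed FPKM from 26.9 in DF-1062 to 180.1 in DF-1037.

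Choroid plexus, an epithelium of the ventricle wall, was seen in some libraries. The summed FPKM of its 6 markers was 476 in WT-1015, 4414 in WT-1063 and 126 in DF-1037 and lay between 7.73 and 26.1 in the other mice, with Ttr, the carrier of thyroid hormone, the most abundant.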
